A study of Mus musculus with 9 samples.

Results

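The 33 genes described here cover cholesterol synthesis from the mevalonate steps to the last sterol steps, the sensors and transcription factors that control it, and cholesterol uptake, trafficking, esterification and export. They were chosen by symbol and are 33 of the 56691 genes counted. All 33 matched a row of the table by symbol, and all 33 passed the filter on low counts that left 17251 genes for testing. RNA of whole testes taken on postnatal day 7 from mice was sequenced after oligo(dT) enrichment, in 3 libraries per group. The groups were Gm1142-/- (Gm1142KO), Gm1142-/- Gm4779-/- (DKO), whose genotype includes Gm1142-/- as well, and wild type (WT). The labels give no strain, name no method of deletion, and do not say whether the libraries of a group came from separate animals, so the tests see the spread between libraries, which may be technical.

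Cells make cholesterol from acetyl-CoA through mevalonate, farnesyl diphosphate, squalene and lanosterol. When sterols are scarce, SCAP carries the SREBP proteins from the endoplasmic reticulum to the Golgi, where they are cut and released to switch on the synthesis genes, and INSIG proteins hold SCAP back when sterols are plentiful. Liver X receptors (LXRs) respond to oxysterols and switch on export genes. In the testis, cholesterol is the substrate from which Leydig cells make androgens.

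The libraries held 4370124 to 8359594 counts, and the 33 members together took 0.165% to 0.174% of counts in libraries labelled Gm1142KO, 0.186% to 0.192% in DKO libraries and 0.167% to 0.172% in WT libraries. Gm1142, listed under the symbol 8030474K03Rik, had 65, 46 and 50 counts in libraries labelled Gm1142KO, 0 in each DKO library and 56, 50 and 41 in WT libraries. Its count was therefore not lower in the libraries labelled Gm1142KO. A gene count cannot show a small deletion, and whether these libraries carry the knockout that the label gives cannot be told from the counts. Gm4779 had 88, 61 and 59 counts in libraries labelled Gm1142KO, 0 in each DKO library and 42, 48 and 53 in WT libraries. A count of 0 allows up to 0.338 to 0.679 CPM (counts per 1000000 counts, on TMM-scaled library sizes) in a DKO library, from counting error alone. On the first principal component, with 37.8% of the variance, the libraries labelled Gm1142KO lay at -65.6 to -42.1, the DKO libraries at 20.7 to 33.2 and the WT libraries at 24.3 to 29.8. Mitochondrially encoded genes took 32.5% to 38.9% of counts in libraries labelled Gm1142KO, 27.1% to 32.9% in DKO libraries and 29.4% to 32.7% in WT libraries. Defining genes of the testis were present, of which Amh and Ddx4 are given here and other markers below. Amh, the Sertoli cell hormone, averaged 61.4 ± 3.32 CPM in libraries labelled Gm1142KO, 62.7 ± 14.3 CPM in DKO libraries and 69.0 ± 6.76 CPM in WT libraries (SD, n = 3 each). Ddx4, a germ cell helicase, averaged 58.9 ± 8.31 CPM in libraries labelled Gm1142KO, 90.0 ± 23.2 CPM in DKO libraries and 64.6 ± 5.53 CPM in WT libraries (SD, n = 3 each).

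Between libraries labelled Gm1142KO and WT libraries, 3 of the 5 genes of SREBP control and 5 of the 18 enzymes of synthesis differed. Transcripts of Insig1, Srebf1 and Srebf2, which encode a sterol sensor and the SREBP transcription factors, rose in libraries labelled Gm1142KO, as did those of the enzymes Fdps, Tm7sf2 and Sc5d and of the LXR gene Nr1h2. Hmgcs1, the synthase that makes HMG-CoA, Ebp, a sterol isomerase, and Abca1, a cholesterol exporter, fell. In all, 10 of 33 members were called (adjusted p under 0.05 in edgeR's quasi-likelihood F-test with Benjamini-Hochberg adjustment over all genes), beside 18.5% of all genes tested. There were 7 members higher, beside 10.2% of all genes, and 3 lower, beside 8.38% of all genes. The 3 libraries of each group did not overlap for 9 members on the higher side, beside 18.7% of all genes, and for 4 on the lower side, beside 17.2%. The median log2 fold change was 0.09 over the 33 members and -0.01 over all genes tested, with 18 of 33 members above 0. Of the 18 enzymes of synthesis 3 rose, 2 fell and 13 did not pass the test, with a median log2 fold change of 0.12. With mitochondrially encoded genes left out before scaling, 10 members and 3202 genes were called. Without Gm1142KO 2, WT 1 or WT 2, 6 members were called. The count of all genes called fell too, from 3196 to 2496, 2037 and 2285.

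Between DKO and WT libraries no member passed the test, in a comparison in which 16 genes, or 0.0927% of those tested, did. The smallest adjusted p among members in edgeR's quasi-likelihood test was 0.125, for Insig1. An unadjusted p under 0.05 was found for 7 members and for 1544 of all genes tested. DESeq2 called 1 member, Insig1, among 63 genes, and limma-voom called 0 members among 15 genes. Log2 fold changes ran from -0.50 for Ebp to 0.99 for Mvd, with 27 of 33 members above 0, as were 9015 of the 17251 genes tested. Their median was 0.23, beside 0.02 over all genes. The groups did not overlap on the higher side for 7 members, Acat2, Mvd, Fdft1, Sqle, Msmo1, Sc5d and Insig1, of which the first 6 are enzymes of synthesis, beside 8.28% of all genes. On the lower side this held for 1 member, Ebp, beside 7.57% of all genes.

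Between DKO libraries and those labelled Gm1142KO, Hmgcs1, Insig2, Stard4 and Abca1 were higher in DKO, and Fdps, Tm7sf2, Insig1, Srebf1 and Nr1h2 were lower. These 9 of 33 calls stand beside 19.1% of all genes tested, the 4 higher beside 9.07% and the 5 lower beside 10.1%. Groups did not overlap for 11 members on the higher side, beside 16.3% of all genes, and for 6 on the lower side, beside 17.1%. The median log2 fold change was 0.32 over the members, 0.40 over the 18 enzymes of synthesis and 0.03 over all genes tested. Fewer members were called without Gm1142KO 2 (3), DKO 2 (4) or Gm1142KO 3 (5). In the same order, the count of all genes called fell from 3301 to 2341, 2128 and 2412. The 3 comparisons share libraries in pairs, so their values are given side by side below and are not independent of each other. RNA came from whole testes, in which fewer cells of a type and less RNA per cell cannot be told apart.

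**Figure D1:**
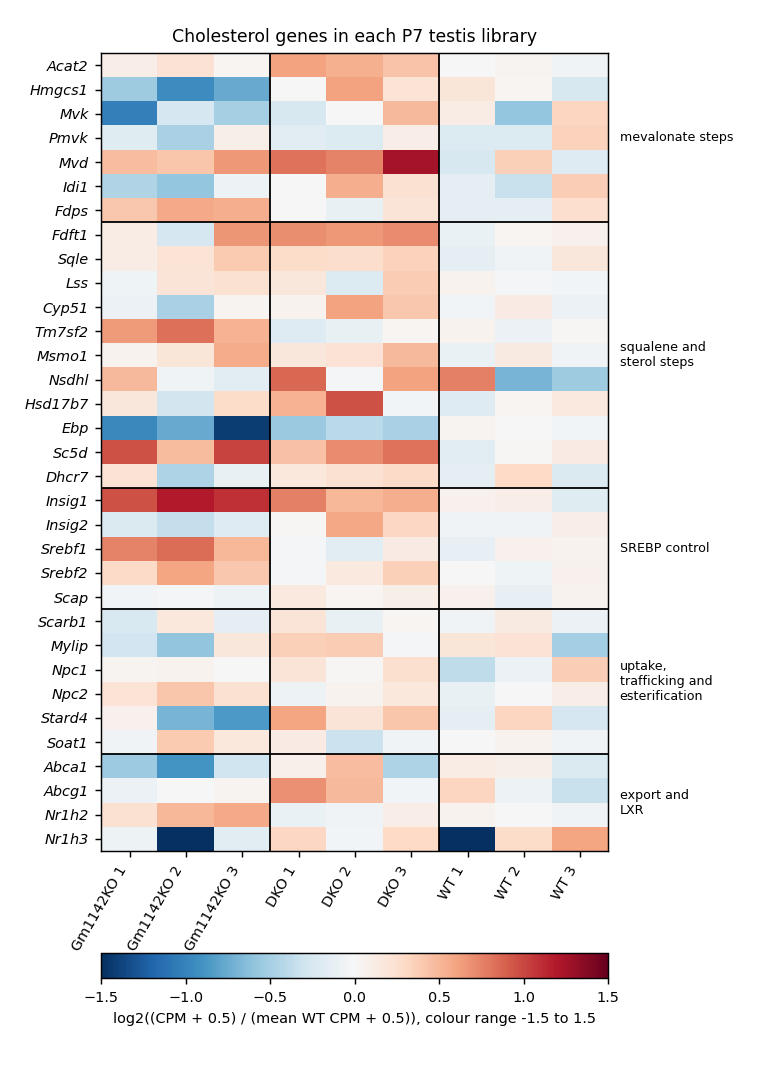
Level of each of the 33 members in each of the 9 libraries, as log2 of (CPM + 0.5) over (mean WT CPM + 0.5), with the colour range ending at -1.5 and 1.5, genes in rows by role and libraries in columns (Gm1142KO, DKO, WT). The row of Insig1 is high in the libraries labelled Gm1142KO (80.8 to 94.6 CPM) and low in WT (36.2 to 44.3 CPM), and that of Hmgcs1 is low in the libraries labelled Gm1142KO (48.1 to 63.9 CPM).

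**Figure D2:**
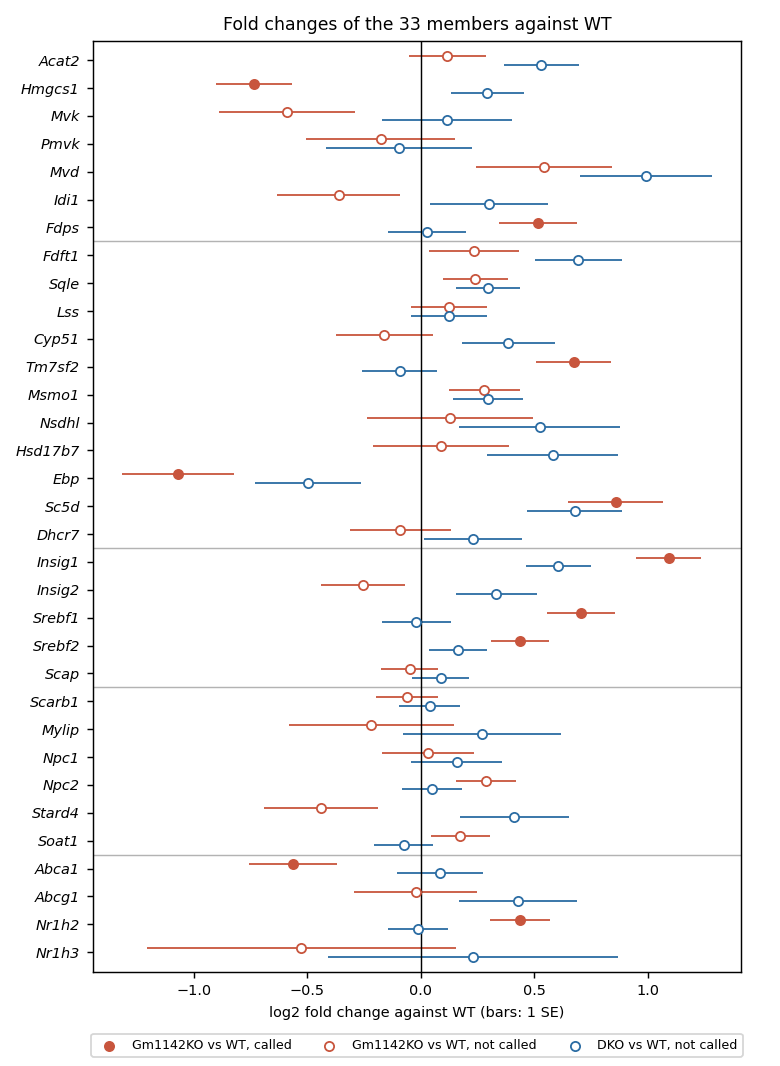
Log2 fold change against WT of the 33 members, 1 row per gene by role, for Gm1142KO (red, upper point) and DKO (blue, lower point). Points are edgeR estimates with bars of 1 SE, and filled points passed the test, which 10 members did for Gm1142KO and 0 for DKO.

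The promoters of the synthesis genes are known for binding sites of SREBP, of its partners NF-Y and Sp1, and for E-boxes, and the stretches below show which of these letters stood before the start of the 6 members whose call against WT held under all 18 alternative settings. The sequences were taken from RefSeq promoters on GRCm38.p6 (250 bases before to 50 after each start), which hold 26 of the 33 members. Each runs 5′ to 3′ on the strand of the gene, and capitals mark a sterol regulatory element core (TCACNCCAC), an NF-Y box (CCAAT, or ATTGG on the other strand) or an E-box (CACGTG).
Hmgcs1, chr13:119690101-119690380, + strand: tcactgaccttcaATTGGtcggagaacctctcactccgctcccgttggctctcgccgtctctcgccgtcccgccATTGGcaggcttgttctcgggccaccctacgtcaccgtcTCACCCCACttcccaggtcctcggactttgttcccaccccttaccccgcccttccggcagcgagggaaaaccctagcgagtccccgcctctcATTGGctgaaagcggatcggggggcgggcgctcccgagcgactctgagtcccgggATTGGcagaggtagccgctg
Ebp, chrX:8193548-8193697, - strand: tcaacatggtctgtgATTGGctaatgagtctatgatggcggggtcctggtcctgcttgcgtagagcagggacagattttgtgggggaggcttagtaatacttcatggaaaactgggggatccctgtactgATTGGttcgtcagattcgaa
Sc5d, chr9:42264305-42264413, - strand: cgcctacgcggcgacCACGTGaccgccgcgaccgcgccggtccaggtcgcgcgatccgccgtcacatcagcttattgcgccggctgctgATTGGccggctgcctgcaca
Tm7sf2, chr19:6067878-6067912, - strand: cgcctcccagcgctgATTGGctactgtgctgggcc
Insig1, chr5:28071181-28071331, + strand: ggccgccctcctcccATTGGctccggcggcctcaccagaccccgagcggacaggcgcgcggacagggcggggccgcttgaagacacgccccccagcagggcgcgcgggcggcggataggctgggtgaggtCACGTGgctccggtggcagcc
Srebf1, upstream start, chr11:60222728-60222762, - strand: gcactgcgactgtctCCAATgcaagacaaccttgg
Srebf1, downstream start, chr11:60210482-60210516, - strand: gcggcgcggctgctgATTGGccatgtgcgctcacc
Counted from the start as +1, with no base 0, the element core of Hmgcs1 began at -137 and its NF-Y boxes at -237, -176, -45 and 11. The E-boxes of Insig1 and Sc5d began at -101 and -98. A further listed start of Srebf1 held none of the marked motifs. Each of the 6 members held at least 1 NF-Y box, among them those that were higher and those that were lower in libraries labelled Gm1142KO.

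Members and all other genes were counted here without chromosome 18. Over all members with an entry, the element core stood in 1 of 26, or 3.85%. This was beside 1.44% of the 27025 genes with an entry and 1.39% of the 11580 of these that were tested. An NF-Y box stood in 21 of 26 members, or 80.8%, beside 41.1% of all genes and 42.8% of tested genes. The Sp1 box (GGGCGG on either strand) stood in 23 of 26 members, or 88.5%, beside 38.2% of all genes and 66.3% of tested genes. An E-box stood in 6 of 26, namely Abca1, Dhcr7, Hsd17b7, Insig1, Sc5d and Scap, or 23.1%, beside 8.09% of all genes and 11.4% of tested genes. All motifs were searched on both strands, and no marked motif in the printed stretches overlaps another. A match of letters is a description of these windows and does not show binding. Only exact letters were matched and the printed stretches end near the outermost match, so a lack of capitals does not show that a site is absent. This holds for the sterol regulatory elements of Srebf1 too.

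Compared per length, as CPM per kilobase of exon, the most abundant member in all 3 groups was Soat1, which esterifies cholesterol for storage. It stood at 46.8 ± 7.32 in libraries labelled Gm1142KO, 39.3 ± 6.11 in DKO libraries and 41.4 ± 1.51 in WT libraries (SD, n = 3 each). Next in WT libraries came Nr1h2 at 22.4 ± 0.862, Srebf2 at 20.5 ± 0.935 and Hmgcs1 at 20.2 ± 2.95, and these 3 values did not differ beyond the SD of Hmgcs1. Nr1h3, the other LXR gene, was the lowest member in all 3 groups, with 1.07 ± 0.814 in WT libraries. Exon length counts each base that is exonic in any annotated transcript of a gene, so this order also depends on the annotation. The order of the members changed for the called ones. Insig1 stood at 28.5 ± 2.25 in libraries labelled Gm1142KO, 20.3 ± 1.97 in DKO libraries and 13.3 ± 1.43 in WT libraries. Hmgcs1 stood at 12.1 ± 1.73 in libraries labelled Gm1142KO, 24.6 ± 5.46 in DKO libraries and 20.2 ± 2.95 in WT libraries.

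**Figure D3:**
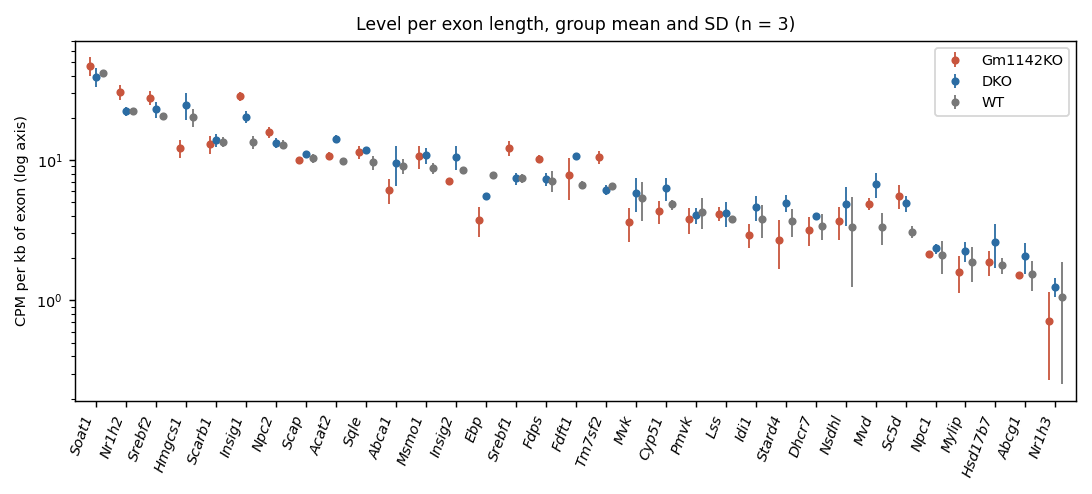
Mean level per exon length of the 33 members, in CPM per kilobase of exon on a log axis, with bars of 1 SD over 3 libraries, for Gm1142KO (red), DKO (blue) and WT (grey). Members run from Soat1 (41.4 in WT) at the left to Nr1h3 (1.07 in WT) at the right.

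Among the 7 mevalonate steps, Hmgcs1, which condenses acetyl-CoA units to HMG-CoA, had 63.9, 48.1 and 54.8 CPM in libraries labelled Gm1142KO, 92.2, 141 and 106 CPM in DKO libraries, and 105, 94.6 and 78.2 CPM in WT libraries. All 3 libraries labelled Gm1142KO lay below all 6 others, and the DKO and WT libraries overlapped. In edgeR's quasi-likelihood test with Benjamini-Hochberg adjustment, which gives every adjusted p below, Hmgcs1 was 0.601-fold in libraries labelled Gm1142KO against WT (log2 fold change -0.73, SE 0.17, adjusted p = 0.00376) and 2.04-fold in DKO libraries against those labelled Gm1142KO (1.03, SE 0.17, adjusted p = 2.17e-04). Against WT, DKO libraries had a log2 fold change of 0.29 (SE 0.16, adjusted p = 0.610). Both calls held under all 18 alternatives, at log2 fold changes of -0.85 to -0.64 against WT and of 0.74 to 1.14 in DKO libraries against those labelled Gm1142KO. In the GRCm38 annotation, 12.1% of the exonic bases of Hmgcs1 are shared with Gm48342 on the opposite strand, which averaged 2.13 CPM in libraries labelled Gm1142KO, 2.77 CPM in DKO libraries and 2.24 CPM in WT libraries. Whether strand was used in counting is not given in the sources used here.

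Fdps, the synthase of farnesyl diphosphate, moved the other way. It had 40.0, 44.7 and 44.1 CPM in libraries labelled Gm1142KO, 29.9, 27.9 and 34.4 CPM in DKO libraries, and 27.2, 27.0 and 36.0 CPM in WT libraries. The libraries labelled Gm1142KO were above all others. The log2 fold change was 0.52 in libraries labelled Gm1142KO against WT (SE 0.17, adjusted p = 0.0406) and -0.49 in DKO libraries against those labelled Gm1142KO (SE 0.17, adjusted p = 0.0495). Both calls lie close to the threshold. The first was lost without DKO 1 (adjusted p = 0.0509), Gm1142KO 2 (0.0948), Gm1142KO 3 (0.125), WT 1 (0.166) or WT 2 (0.158), and the second without any 1 of 8 libraries, all but DKO 3, with adjusted p of 0.0521 to 0.188. Without both Gm1142KO 2 and DKO 2 the adjusted p was 0.0666 for the first and 0.236 for the second. With no filter on low counts the adjusted p was 0.0791 for the first and 0.102 for the second, which was 0.0670 with the compared groups alone. In the GRCm38 annotation, 26.7% of the exonic bases of Fdps are shared with Gm43738 on the same strand.

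None of the other 5 mevalonate steps passed the test in any comparison. Mvd, the decarboxylase that yields isopentenyl diphosphate, had 8.74, 8.44 and 10.01 CPM in libraries labelled Gm1142KO, 11.3, 10.7 and 15.4 CPM in DKO libraries, and 5.17, 8.08 and 5.38 CPM in WT libraries. Its 3 groups did not overlap, with DKO highest and WT lowest. The log2 fold change was 0.99 in DKO libraries against WT (SE 0.29, adjusted p = 0.273) and 0.54 in libraries labelled Gm1142KO against WT (SE 0.30, adjusted p = 0.231). Acat2, a cytosolic thiolase that makes acetoacetyl-CoA, had 26.8, 29.1 and 25.6 CPM in libraries labelled Gm1142KO, 38.3, 36.3 and 33.7 CPM in DKO libraries, and 25.1, 25.8 and 24.1 CPM in WT libraries. The DKO libraries lay above all 6 others, with a log2 fold change of 0.53 against WT (SE 0.17, adjusted p = 0.323) and 0.41 against the libraries labelled Gm1142KO (SE 0.17, adjusted p = 0.0881). Mvk, which phosphorylates mevalonate, had 6.80, 12.0 and 10.01 CPM in libraries labelled Gm1142KO, 12.1, 14.4 and 20.4 CPM in DKO libraries, and 15.5, 9.46 and 18.1 CPM in WT libraries. Its WT libraries overlapped those of both other groups, and the log2 fold change of libraries labelled Gm1142KO against WT was -0.59 (SE 0.30, adjusted p = 0.191). Against WT, Idi1, an isomerase of the isoprenoid unit, had log2 fold changes of -0.36 in libraries labelled Gm1142KO and 0.30 in DKO libraries, and Pmvk, which adds the next phosphate to mevalonate, had -0.18 in libraries labelled Gm1142KO and -0.10 in DKO libraries. Summed over the 7 genes, the level was 156 to 165 CPM in libraries labelled Gm1142KO, 203 to 256 CPM in DKO libraries and 182 to 196 CPM in WT libraries, a sum in which Hmgcs1 weighs most.

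Among the 11 squalene and sterol steps, Tm7sf2, a sterol C14 reductase, had 45.3, 51.4 and 41.5 CPM in libraries labelled Gm1142KO, 25.3, 26.6 and 29.4 CPM in DKO libraries, and 30.1, 27.2 and 29.3 CPM in WT libraries. The libraries labelled Gm1142KO were high and the other 6 overlapped. The log2 fold change was 0.67 in libraries labelled Gm1142KO against WT (SE 0.16, adjusted p = 0.00634) and -0.76 in DKO libraries against those labelled Gm1142KO (SE 0.16, adjusted p = 0.00249), and both calls held under all 18 alternatives. Of its exonic bases, 12.1% are shared in the GRCm38 annotation with Vps51 on the same strand, which was not called in libraries labelled Gm1142KO against WT (log2 fold change 0.25, SE 0.16, adjusted p = 0.313).

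Ebp, the isomerase that moves the sterol double bond, had 8.93, 10.5 and 6.39 CPM in libraries labelled Gm1142KO, 12.1, 13.4 and 12.7 CPM in DKO libraries, and 18.6, 17.9 and 17.4 CPM in WT libraries. No libraries of different groups overlapped, with WT highest and the DKO libraries in the middle. Libraries labelled Gm1142KO had 0.477-fold the WT level (log2 fold change -1.07, SE 0.25, adjusted p = 0.00430), which was -1.23 to -0.90 under the 18 alternatives and called in each. For DKO libraries the log2 fold change was -0.50 against WT (SE 0.23, adjusted p = 0.551) and 0.57 against the libraries labelled Gm1142KO (SE 0.25, adjusted p = 0.115).

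Sc5d, the sterol desaturase that acts after Ebp, had 29.5, 21.0 and 30.7 CPM in libraries labelled Gm1142KO, 20.5, 24.7 and 26.7 CPM in DKO libraries, and 13.4, 15.2 and 16.4 CPM in WT libraries. The libraries labelled Gm1142KO and the DKO libraries lay above WT and overlapped each other. The rise of libraries labelled Gm1142KO against WT passed the test in all 18 alternatives (log2 fold change 0.86, SE 0.21, adjusted p = 0.00669). The difference of DKO libraries from WT did not (0.68, SE 0.21, adjusted p = 0.309), nor did that of DKO libraries from those labelled Gm1142KO (-0.18, SE 0.20, adjusted p = 0.579).

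The other 8 sterol steps were not called in any comparison. Fdft1, the squalene synthase, had 30.5, 23.5 and 44.7 CPM in libraries labelled Gm1142KO, 45.9, 44.3 and 46.2 CPM in DKO libraries, and 26.2, 28.6 and 29.5 CPM in WT libraries. The DKO and WT libraries were tight and apart, and the libraries labelled Gm1142KO spread over nearly the whole range. The log2 fold change was 0.69 in DKO libraries against WT (SE 0.19, adjusted p = 0.254). In DKO libraries against those labelled Gm1142KO it was 0.46 (SE 0.19, adjusted p = 0.0999, and 0.0162 without Gm1142KO 3), and 18.3% of the exonic bases of Fdft1 are shared with Ctsb on the opposite strand. Sqle, the squalene epoxidase, had 57.7, 61.6 and 70.3 CPM in libraries labelled Gm1142KO, 64.9, 64.3 and 67.9 CPM in DKO libraries, and 48.6, 51.4 and 60.5 CPM in WT libraries. The DKO libraries lay just above WT, at a log2 fold change of 0.30 (SE 0.14, adjusted p = 0.552), and libraries labelled Gm1142KO overlapped WT, at 0.24 (SE 0.14, adjusted p = 0.266). Msmo1, which removes methyl groups of the sterol, had 55.9, 60.9 and 79.0 CPM in libraries labelled Gm1142KO, 60.5, 62.6 and 75.6 CPM in DKO libraries, and 50.3, 59.1 and 51.9 CPM in WT libraries. Its log2 fold change was 0.28 in libraries labelled Gm1142KO against WT (SE 0.16, adjusted p = 0.238). Cyp51, the lanosterol demethylase, had 20.004, 15.1 and 21.9 CPM in libraries labelled Gm1142KO, 22.2, 32.7 and 28.3 CPM in DKO libraries, and 20.7, 23.3 and 20.03 CPM in WT libraries. The DKO libraries lay above those labelled Gm1142KO, at a log2 fold change of 0.55 (SE 0.21, adjusted p = 0.0717, and 0.0468 without DKO 1). Lss, Nsdhl, Hsd17b7 and Dhcr7, which act between the first ring closure and the last reduction, had log2 fold changes against WT of -0.09 to 0.13 in libraries labelled Gm1142KO and 0.12 to 0.58 in DKO libraries. The 11 genes summed to 322 to 381 CPM in libraries labelled Gm1142KO, 351 to 388 CPM in DKO libraries and 293 to 303 CPM in WT libraries.

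Among the 5 genes of SREBP control, Insig1, which retains the SCAP and SREBP complex and is itself a known SREBP target, had 80.8, 94.6 and 89.1 CPM in libraries labelled Gm1142KO, 69.8, 58.4 and 60.5 CPM in DKO libraries, and 43.3, 44.3 and 36.2 CPM in WT libraries. The 3 groups did not overlap, and the DKO libraries stood in the middle. Its level was 2.13-fold that of WT in libraries labelled Gm1142KO (log2 fold change 1.09, SE 0.14, adjusted p = 2.18e-05), the smallest adjusted p among members in that comparison, and 1.004 to 1.15 on the log2 scale under the 18 alternatives. In DKO libraries against WT the log2 fold change was 0.61 (SE 0.14, adjusted p = 0.125), which missed the threshold, and in DKO libraries against those labelled Gm1142KO it was -0.49 (SE 0.14, adjusted p = 0.0179). The last call was lost without DKO 2 (adjusted p = 0.0798), Gm1142KO 2 (0.0551), both of these (0.124) or Gm1142KO 3 (0.0596).

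Insig2, the paralog of Insig1, had 25.2, 22.8 and 25.6 CPM in libraries labelled Gm1142KO, 29.7, 44.0 and 36.5 CPM in DKO libraries, and 28.3, 28.2 and 31.4 CPM in WT libraries. Libraries labelled Gm1142KO were below all others. The difference from WT did not pass the test (log2 fold change -0.25, SE 0.18, adjusted p = 0.376). DKO libraries were higher than those labelled Gm1142KO (0.59, SE 0.18, adjusted p = 0.0272), a call lost without DKO 2 (adjusted p = 0.158), Gm1142KO 2 (0.0839), both of these (0.270) or Gm1142KO 3 (0.0619) and with the compared groups alone (0.0512).

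Srebf1, whose product drives mainly lipid synthesis genes, had 70.9, 75.7 and 59.4 CPM in libraries labelled Gm1142KO, 41.5, 37.5 and 46.0 CPM in DKO libraries, and 38.5, 44.0 and 43.7 CPM in WT libraries. The libraries labelled Gm1142KO stood apart and the other 6 overlapped. The log2 fold change was 0.71 in libraries labelled Gm1142KO against WT (SE 0.15, adjusted p = 0.00231) and -0.73 in DKO libraries against those labelled Gm1142KO (SE 0.15, adjusted p = 0.00191), and both calls held under all 18 alternatives. Srebf2, the main activator of the cholesterol genes, had 179.7, 223 and 195 CPM in libraries labelled Gm1142KO, 144, 163 and 189 CPM in DKO libraries, and 147, 141 and 154 CPM in WT libraries. Libraries labelled Gm1142KO lay above WT and overlapped DKO. The rise against WT (log2 fold change 0.44, SE 0.13, adjusted p = 0.0212) was lost without Gm1142KO 2 (adjusted p = 0.0831), Gm1142KO 3 (0.0634), WT 1 (0.0758) or WT 2 (0.0941). DKO libraries against those labelled Gm1142KO gave -0.27 (SE 0.13, adjusted p = 0.145). Scap, the escort protein, had log2 fold changes of -0.05 in libraries labelled Gm1142KO and 0.09 in DKO libraries against WT.

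**Figure D4:**
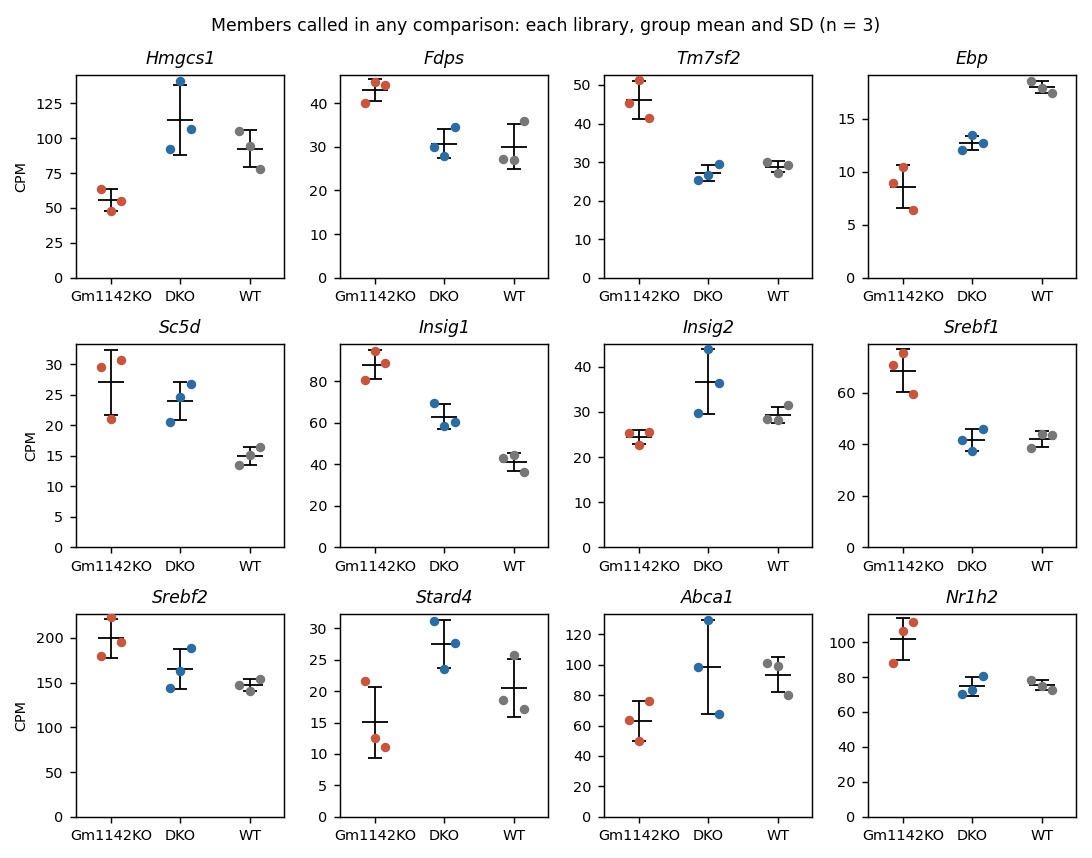
CPM of the 12 members called in any comparison, 1 panel per gene, with 1 point per library, the group mean and bars of 1 SD (n = 3), for Gm1142KO, DKO and WT from left to right on axes that start at 0. Insig1, Srebf1, Tm7sf2 and Fdps have all 3 Gm1142KO points above the other 6, and Hmgcs1 has them below.

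Among the 6 genes of uptake, trafficking and esterification, only Stard4, a cytosolic sterol carrier, was called, and only in 1 comparison. It had 21.6, 12.5 and 11.1 CPM in libraries labelled Gm1142KO, 31.2, 23.6 and 27.6 CPM in DKO libraries, and 18.6, 25.8 and 17.2 CPM in WT libraries. DKO libraries lay above those labelled Gm1142KO (log2 fold change 0.85, SE 0.25, adjusted p = 0.0196), a call lost without DKO 1 (adjusted p = 0.0803), Gm1142KO 2 (0.0718) or Gm1142KO 3 (0.109). Both groups overlapped WT, with -0.44 for libraries labelled Gm1142KO (SE 0.25, adjusted p = 0.252, and 0.0370 without Gm1142KO 1) and 0.41 for DKO libraries (SE 0.24, adjusted p = 0.636). Npc2, which hands cholesterol to Npc1 in the lysosome, had 80.8, 93.8 and 81.8 CPM in libraries labelled Gm1142KO, 66.6, 72.6 and 78.1 CPM in DKO libraries, and 64.7, 69.97 and 75.2 CPM in WT libraries. The libraries labelled Gm1142KO were above the other 6, with a log2 fold change against WT of 0.29 (SE 0.13, adjusted p = 0.145). Soat1 had 389.6, 533 and 452 CPM in libraries labelled Gm1142KO, 443, 323 and 390.0 CPM in DKO libraries, and 407, 419.6 and 390.2 CPM in WT libraries. The groups overlapped, and DKO libraries against those labelled Gm1142KO gave -0.25 (SE 0.13, adjusted p = 0.193). Scarb1, the receptor through which steroidogenic cells take up cholesterol from high-density lipoprotein, had 97.9, 129 and 105 CPM in libraries labelled Gm1142KO, 131, 106 and 118 CPM in DKO libraries, and 111, 126 and 108 CPM in WT libraries. Its groups overlapped, and its log2 fold change against WT was -0.06 in libraries labelled Gm1142KO and 0.04 in DKO libraries. Mylip, a ubiquitin ligase of lipoprotein receptors, had -0.22 in libraries labelled Gm1142KO and 0.27 in DKO libraries on the same scale, and Npc1 had 0.03 in libraries labelled Gm1142KO and 0.16 in DKO libraries.

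Among the 4 genes of export and LXR, Abca1, which loads cholesterol onto apolipoprotein, had 63.7, 49.9 and 76.1 CPM in libraries labelled Gm1142KO, 98.7, 129.5 and 67.5 CPM in DKO libraries, and 101.1, 98.9 and 80.3 CPM in WT libraries. Libraries labelled Gm1142KO lay below WT and overlapped DKO 3. Their log2 fold change against WT was -0.56 (SE 0.19, adjusted p = 0.0478). That call was lost without DKO 1 (adjusted p = 0.0587), Gm1142KO 1 (0.0860), Gm1142KO 2 (0.158), WT 1 (0.166), WT 2 (0.144) or WT 3 (0.0520) and with limma-voom (0.0557). It was also lost without both Gm1142KO 2 and DKO 2 (0.0644). DKO libraries against those labelled Gm1142KO gave 0.65 (SE 0.19, adjusted p = 0.0222), which was lost without DKO 1 (adjusted p = 0.0557), DKO 2 (0.176) or Gm1142KO 2 (0.0928). Without both Gm1142KO 2 and DKO 2 this log2 fold change was 0.26 (adjusted p = 0.378). Between DKO and WT libraries the difference of 0.09 (SE 0.19, adjusted p = 0.929) changed sign without DKO 2 or WT 3.

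Nr1h2, which encodes LXR beta, had 88.2, 106 and 111 CPM in libraries labelled Gm1142KO, 70.4, 72.8 and 80.9 CPM in DKO libraries, and 78.3, 74.7 and 72.6 CPM in WT libraries. The libraries labelled Gm1142KO were above the other 6. The log2 fold change was 0.44 in libraries labelled Gm1142KO against WT (SE 0.13, adjusted p = 0.0249) and -0.45 in DKO libraries against those labelled Gm1142KO (SE 0.13, adjusted p = 0.0208). The first call was lost without Gm1142KO 2 (adjusted p = 0.0629), Gm1142KO 3 (0.140), WT 1 (0.0645), WT 2 (0.0832) or WT 3 (0.0933) and with no filter (0.0517), and the second without DKO 1 (0.0698), DKO 2 (0.0729), Gm1142KO 2 (0.05002) or Gm1142KO 3 (0.109). The second was also lost without both Gm1142KO 2 and DKO 2 (0.0822). Abcg1, which exports cholesterol to high-density lipoprotein, had 10.5, 11.2 and 11.5 CPM in libraries labelled Gm1142KO, 18.4, 15.9 and 10.9 CPM in DKO libraries, and 14.2, 10.6 and 8.83 CPM in WT libraries. Its groups overlapped, with log2 fold changes of 0.43 in DKO libraries against WT (SE 0.26, adjusted p = 0.650) and 0.45 in DKO libraries against those labelled Gm1142KO (SE 0.26, adjusted p = 0.252). Nr1h3, which encodes LXR alpha, had 13, 2 and 11 counts in libraries labelled Gm1142KO, 18, 23 and 15 in DKO libraries, and 2, 17 and 20 in WT libraries. Its counts differed widely within a group, and it was not called (log2 fold change -0.53 in libraries labelled Gm1142KO against WT, SE 0.68, adjusted p = 0.648).

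Companion lists of neighbouring pathways were counted in the same tests, and each count stands beside the share of all genes tested. That share was 10.2% higher and 8.38% lower in libraries labelled Gm1142KO against WT, and 9.07% higher and 10.1% lower in DKO libraries against those labelled Gm1142KO. Of 10 genes of the isoprenoid branch, which uses farnesyl diphosphate for other products, 2 rose and 1 fell in libraries labelled Gm1142KO against WT. Fnta, the alpha subunit shared by the enzymes that prenylate proteins, had 96.3, 107 and 108 CPM in libraries labelled Gm1142KO, 46.9, 54.0 and 61.8 CPM in DKO libraries, and 54.6, 61.5 and 66.5 CPM in WT libraries. It rose in libraries labelled Gm1142KO against WT (log2 fold change 0.77, SE 0.14, adjusted p = 6.07e-04). Icmt, which methylates prenylated proteins, had 13.2, 14.1 and 13.2 CPM in libraries labelled Gm1142KO, 27.9, 42.2 and 28.5 CPM in DKO libraries, and 26.6, 28.4 and 20.03 CPM in WT libraries. It fell in libraries labelled Gm1142KO against WT (-0.89, SE 0.22, adjusted p = 0.00700), while Pdss2, a subunit of the enzyme that makes the side chain of ubiquinone, rose (1.15, SE 0.28, adjusted p = 0.00722). In DKO libraries against those labelled Gm1142KO, 3 genes of this branch rose and 1 fell, among them Icmt (1.30, adjusted p = 2.92e-04), Nus1 (0.67, adjusted p = 0.0224, lost without DKO 2 at 0.144, Gm1142KO 2 at 0.111 or both at 0.356) and Fnta (-0.94, adjusted p = 1.03e-04).

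Of 11 genes that process or turn over SREBP, 3 rose and 0 fell in libraries labelled Gm1142KO against WT, beside 10.2% and 8.38% of all genes, with a median log2 fold change of 0.19. Ufd1, a cofactor in the removal of ubiquitinated proteins from the endoplasmic reticulum, rose (0.50, SE 0.12, adjusted p = 0.00628). The protease gene Mbtps1, which makes the first cut in SREBP, gave 0.36 (SE 0.11, adjusted p = 0.0259, lost without Gm1142KO 3 at 0.109, WT 1 at 0.150, WT 2 at 0.0606 or WT 3 at 0.0572, and with no filter at 0.0602). Rnf145, a sterol-responsive ubiquitin ligase, gave 0.47 (SE 0.14, adjusted p = 0.0283, lost without Gm1142KO 1 at 0.0670, Gm1142KO 3 at 0.112, WT 1 at 0.0857, WT 2 at 0.0834 or WT 3 at 0.0965). In DKO libraries against those labelled Gm1142KO, 1 of the 11 rose (Erlin1, 0.81, adjusted p = 0.0267, at most 0.220 under alternatives) and 1 fell (Ufd1, -0.52, adjusted p = 0.00480).

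Of 14 fatty acid synthesis genes tested, 0 rose and 1 fell in libraries labelled Gm1142KO against WT, a share below the 18.5% of all genes called, with a median log2 fold change of -0.27. Scd2, a stearoyl-CoA desaturase, had 252, 145 and 246 CPM in libraries labelled Gm1142KO, 321, 455 and 287 CPM in DKO libraries, and 324, 302 and 309.7 CPM in WT libraries. Its log2 fold change was -0.54 in libraries labelled Gm1142KO against WT (SE 0.18, adjusted p = 0.0369, lost without Gm1142KO 2 at 0.140, WT 1 at 0.120, WT 2 at 0.0809 or WT 3 at 0.0878) and 0.73 in DKO libraries against those labelled Gm1142KO (SE 0.18, adjusted p = 0.00662, lost without DKO 2 at 0.0610 or both libraries 2 at 0.0929). In DKO libraries against those labelled Gm1142KO, 3 of the 14 rose and 0 fell, beside 19.1% of all genes called, with a median of 0.35. Besides Scd2 these were Elovl5, a fatty acid elongase (0.50, adjusted p = 0.0292), and Lpin1, a phosphatidate phosphatase (0.77, adjusted p = 0.0415), whose adjusted p reached 0.356 and 0.194 under alternatives.

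Of 12 tested genes of steroid synthesis, 0 rose and 4 fell in libraries labelled Gm1142KO against WT, beside 8.38% of all genes lower, with a median log2 fold change of -0.62. In DKO libraries against those labelled Gm1142KO 4 rose and 0 fell, beside 9.07% of all genes higher, with a median of 0.43. Fdxr, the reductase that feeds electrons to mitochondrial steroid enzymes, had 99.2, 99.7 and 115 CPM in libraries labelled Gm1142KO, 210.3, 206 and 215 CPM in DKO libraries, and 263, 232 and 242 CPM in WT libraries. Its groups did not overlap, with a log2 fold change of -1.23 in libraries labelled Gm1142KO against WT (SE 0.12, adjusted p = 4.35e-07). Cyp17a1, the enzyme that commits steroids to androgens, had 13.8, 39.1 and 7.67 CPM in libraries labelled Gm1142KO, 124, 23.4 and 119 CPM in DKO libraries, and 165, 157 and 46.3 CPM in WT libraries. All libraries labelled Gm1142KO lay below WT, while DKO 2 lay within their range. It was 0.160-fold in libraries labelled Gm1142KO against WT (log2 fold change -2.64, SE 0.54, adjusted p = 0.00162). Cyp17a1 rose by 2.15 on the log2 scale in DKO libraries against those labelled Gm1142KO (SE 0.54, adjusted p = 0.00797), a call lost with DESeq2 (0.0634) and with limma-voom (0.0540). Hsd3b1, which oxidises pregnenolone to progesterone, fell in libraries labelled Gm1142KO against WT (-0.67, SE 0.16, adjusted p = 0.00474) and rose in DKO libraries against those labelled Gm1142KO (0.59, SE 0.16, adjusted p = 0.0120, lost without DKO 1 at 0.0601, DKO 2 at 0.0615, Gm1142KO 2 at 0.0577 or both libraries 2 at 0.136). The falls of Fdxr, Cyp17a1 and Hsd3b1 against WT held under all 18 alternatives. Of 8 tested lipoprotein and receptor genes 1 rose in libraries labelled Gm1142KO against WT (Lrpap1, 0.43, adjusted p = 0.0446, at most 0.215 under alternatives) and 1 fell in DKO libraries against those labelled Gm1142KO (Stab1, -0.56, adjusted p = 0.0347, at most 0.140 under alternatives). Of 13 sterol transport proteins and of 12 tested LXR targets and oxysterol enzymes, 0 were called in any comparison, and Ch25h of the last list had 0 counts in all 9 libraries. Between DKO and WT libraries, 0 genes of these 7 lists were called.

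Levels of cell markers are given here as sums over each list, since whole testes were sequenced. The counts of called markers stand beside the shares of all genes tested. In libraries labelled Gm1142KO against WT these were 10.2% higher and 8.38% lower. For DKO against WT, 0.0927% were called. In DKO libraries against those labelled Gm1142KO, 9.07% were higher and 10.1% lower. The 8 genes listed as Leydig cell markers summed to 1594 to 2009 CPM in libraries labelled Gm1142KO, 1398 to 1827 CPM in DKO libraries and 1731 to 1895 CPM in WT libraries. Of 7 tested, 1 was higher and 2 were lower in libraries labelled Gm1142KO against WT. Most of the sum was Akr1cl, at 808, 914 and 948 CPM in libraries labelled Gm1142KO, 612, 576 and 542 CPM in DKO libraries, and 614, 597 and 634 CPM in WT libraries, and Hsd17b3, at 609, 828 and 659 CPM in libraries labelled Gm1142KO, 769, 572 and 656 CPM in DKO libraries, and 778, 814 and 818 CPM in WT libraries. The sum therefore tells little of the other listed genes. In WT libraries, where Hsd17b3 varied little, Cyp17a1 had 165, 157 and 46.3 CPM and Cyp11a1 had 151, 123 and 50.4 CPM. Cyp11a1 had 37.9, 126 and 39.6 CPM in libraries labelled Gm1142KO and 124, 37.0 and 84.0 CPM in DKO libraries. Star had 10.5, 20.7 and 11.7 CPM in libraries labelled Gm1142KO, 33.7, 19.6 and 20.2 CPM in DKO libraries, and 28.9, 29.2 and 9.69 CPM in WT libraries. For Cyp11a1 and Star, libraries labelled Gm1142KO overlapped WT. The median log2 fold change of the 7 tested genes was -0.67, with 1 of 7 above 0 in libraries labelled Gm1142KO against WT. Of these genes 2 were higher and 1 was lower in DKO libraries against those labelled Gm1142KO. The 12 Sertoli cell markers summed to 1187 to 1293 CPM in libraries labelled Gm1142KO, 1162 to 1276 CPM in DKO libraries and 1252 to 1336 CPM in WT libraries, and of 11 tested 1 was higher and 4 were lower in libraries labelled Gm1142KO against WT. Of the 11, 5 were higher and 1 was lower in DKO libraries against those labelled Gm1142KO. These markers moved both ways. Sox9 averaged 18.5 CPM in libraries labelled Gm1142KO, 44.0 CPM in DKO libraries and 51.8 CPM in WT libraries. Sox8, Cst9, Espn and Cldn11 also averaged less in libraries labelled Gm1142KO than in WT. Wt1 averaged 337 CPM in libraries labelled Gm1142KO, 239 CPM in DKO libraries and 245 CPM in WT libraries. Gata4 and Fshr also averaged more in libraries labelled Gm1142KO than in WT. The 10 germ cell markers summed to 394 to 488 CPM in libraries labelled Gm1142KO, 703 to 867 CPM in DKO libraries and 437 to 524 CPM in WT libraries. In that list 2 markers were higher and 1 was lower in libraries labelled Gm1142KO against WT, 3 markers, Dazl, Uchl1 and Sycp1, were called higher in DKO against WT, and 6 in DKO against libraries labelled Gm1142KO. Macrophage markers summed to 54.7 to 61.8 CPM in libraries labelled Gm1142KO, 63.3 to 87.8 CPM in DKO libraries and 65.0 to 84.0 CPM in WT libraries, with 1 of 8 called, lower, in the first group against WT. Epididymal and duct markers summed to 72.4 to 83.1 CPM in libraries labelled Gm1142KO, 51.0 to 72.9 CPM in DKO libraries and 89.2 to 120.2 CPM in WT libraries, with 1 of 8 called, lower, in libraries labelled Gm1142KO against WT and 1 lower in DKO libraries against those labelled Gm1142KO. Red blood cell markers summed to 95.2 to 137 CPM in libraries labelled Gm1142KO, 62.4 to 82.7 CPM in DKO libraries and 68.7 to 82.9 CPM in WT libraries, with 1 of 5 tested called, higher, in libraries labelled Gm1142KO against WT and 2 lower in DKO libraries against those labelled Gm1142KO. Adipocyte markers summed to 85.9 to 245 CPM in libraries labelled Gm1142KO, 48.5 to 176 CPM in DKO libraries and 76.8 to 213 CPM in WT libraries, and endothelium markers to 65.5 to 153 CPM in libraries labelled Gm1142KO, 93.2 to 131 CPM in DKO libraries and 103 to 119 CPM in WT libraries, with 0 of 6 called in each list against WT. Of the endothelium markers 1 was higher and 1 lower in DKO libraries against those labelled Gm1142KO, where 0 macrophage and 0 adipocyte markers were called. No marker of the 8 lists was at 0 in all 9 libraries. Mitochondrially encoded genes were left out before scaling in an alternative given above. Beyond this, the part of these markers and of the mitochondrial share in the members' differences was not tested.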

How the data were processed

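Whole P7 testes were sequenced as 9 libraries in 3 groups of 3, grouped by title. The authors deposited raw counts per gene. Per the submitters' processing notes, the build was mm39 and the tools included featureCounts, STAR, Bowtie2 and cutadapt, with no versions; the annotation, strand setting and handling of multiply mapped reads are not given in the sources used here. Symbols matched 52073 of 56691 identifiers, and unnamed rows held at most 0.510% of counts. Counts were fitted in edgeR 4.0.16 (R 4.3.3, limma 3.58.1, DESeq2 1.42.0) with TMM scaling, a filter by group (minimum count 10, minimum total 15) and 1 quasi-likelihood model over all 9 libraries (6 residual degrees of freedom), with Benjamini-Hochberg adjustment over 17251 genes and calls at adjusted p under 0.05. SE is the log2 fold change divided by the square root of F. The fit was tested on simulated counts. Exon lengths came from GRCm38, as all bases exonic in any annotated transcript of a gene. Alternatives changed scaling, filter, tool, samples, block, mitochondrial genes or left out libraries.

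The members and lists were chosen with earlier results of these data known. Every member is accounted for. Members called in any comparison, 5 landmark genes and the uncalled member with the smallest p per role and comparison are given by library, Scarb1 was added after its values were seen, and up to 3 called genes per companion list are named. Correlations over the 9 libraries are not given because the libraries labelled Gm1142KO stand apart. No 2 libraries of a group were within sampling noise of each other. Precision is limited by counting error and by 3 libraries per group.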

Additional observations from a re-analysis of the deposited data

Results flagged for a closer look

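For 9 members the difference from WT was not the same in both other groups, by the test of DKO libraries against those labelled Gm1142KO in edgeR's quasi-likelihood model, with Benjamini-Hochberg adjustment. The log2 fold changes were 1.03 for Hmgcs1, 0.85 for Stard4, 0.65 for Abca1 and 0.59 for Insig2, higher in DKO. They were -0.76 for Tm7sf2, -0.73 for Srebf1, -0.49 for Insig1, -0.49 for Fdps and -0.45 for Nr1h2, lower in DKO. Calls were made for 19.1% of all genes tested in that comparison. The calls of Hmgcs1, Tm7sf2 and Srebf1 held under all 18 alternatives, and the other 6 were lost under at least 1.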

How the results depend on the processing

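For 63 single-gene results, called or given by library, 18 alternatives gave 1134 values, of which 1003 kept direction and side of the threshold, 125 lost and 2 gained a call, and 4 reversed. Of the other 59 member results, 22 changed sign in at least 1 alternative, each with a log2 fold change of at most 0.23 in size with all libraries, and 2 gained a call. The 4 member calls gained were Insig1 in DKO against WT (DESeq2), Stard4 in Gm1142KO against WT (without Gm1142KO 1), and Cyp51 (without DKO 1) and Fdft1 (without Gm1142KO 3) in DKO against Gm1142KO. The reversals among the 63 concern values near 0 that were never called: Abca1 in DKO against WT (-0.18 without DKO 2, -0.17 without Gm1142KO 2 and DKO 2, -0.01 without WT 3, -0.18 to 0.28 over single omissions) and Sqle in DKO against libraries labelled Gm1142KO (-0.0067 without Gm1142KO 1, -0.0067 to 0.14 over single omissions). Leaving out 1 library gave 2037 to 3380 genes and 6 to 10 members for Gm1142KO against WT, 9 to 45 genes and 0 members for DKO against WT, and 2128 to 3219 genes and 3 to 9 members for DKO against Gm1142KO, where all libraries gave 3196 and 10, 16 and 0, and 3301 and 9. The gene counts that moved most were 2037 without WT 1 for Gm1142KO against WT, 9 without WT 1, 32 without DKO 1 and 45 without Gm1142KO 2 for DKO against WT, and 2128 without DKO 2 for DKO against Gm1142KO. Without Gm1142KO 2 and DKO 2 the last comparison had 2004 genes and 4 members. For DKO against WT, 28 genes were called with the compared groups alone, 63 with DESeq2 (1 member) and 110 with no filter. The cause of these shifts was not tested, and each omission also leaves fewer libraries. Over the 18 alternatives the members' median log2 fold change was -0.03 to 0.12 for Gm1142KO against WT, 0.17 to 0.28 for DKO against WT and 0.16 to 0.40 for DKO against Gm1142KO.

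With the replicate block, 2921 genes and 9 members were called for Gm1142KO against WT, 16 and 0 for DKO against WT, and 2965 and 8 for DKO against Gm1142KO. The calls lost were Abca1 against WT (adjusted p = 0.0749) and Fdps in DKO against Gm1142KO (0.0553) among members, and Lrpap1 (0.0586) and Scd2 (0.0567) against WT and Elovl5 (0.0508) in DKO against Gm1142KO. Deviations of same-numbered libraries from their group means had correlations of -0.274 to 0.103. The labels name no pairing, and these values cannot tell whether same-numbered libraries shared a preparation. Nr1h3 had 2 to 23 counts per library, the fewest of the members.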
